A study of Mus musculus with 3 samples.

Results

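The comparison set immune cells of the outer medulla (OM) of the mouse kidney beside those of the cortex, across every immune cluster of the deposited count table. The cells were all rows that the table assigns to either compartment, 14261 of 20266 in the series: 7508 from cortex and 6753 from OM. A further 6005 cells of the inner medulla entered the models only for the estimate of the spread. The mice were wild-type (wt) males of the strain C57BL/6J, 10 weeks old and untreated, labelled untouched. Their kidneys were dissected by hand, digested with enzymes and sorted for CD45-positive cells before droplet-based single-cell RNA sequencing. The study generated these data to learn whether a cell's transcriptome reports the compartment it came from. Groups were cortex and OM, each sampled at 3 facilities (Aachen, Bonn and Hamburg), so that n = 3 paired libraries a side. The number of mice behind each library is not stated, and the mice had no transgene or other allele.

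The cortex holds the glomeruli and most of the proximal tubule, while the OM holds the straight tubule segments and the thick ascending limb, which reabsorbs salt without water. From cortex to medulla salt and urea rise and oxygen falls, and the interstitial leukocytes sit in that gradient. Conventional dendritic cells (cDCs) fall into cDC1, which depend on the transcription factor IRF8 and present antigen to CD8 T cells, and cDC2, which depend more on IRF4 and mainly serve CD4 T cells. Classical monocytes enter tissue from blood and respond quickly to interferon and to NF-kB signals with chemokines.

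The 6 libraries held 621 to 3677 cells with a median of 744 to 3259 UMIs (unique molecular identifiers, each standing for a captured mRNA) per cell. The Aachen libraries were the shallowest and listed the immunoglobulin constant genes at 0 in their B cells, so that they cannot report these genes. The Hamburg values were mostly not whole numbers, so all sums were rounded. Barcode sequences shared between any pair of these libraries numbered 0 to 16. Clusters are the authors' own, named by them from the same cells. In the clusters named for a cell type with a marker list, that type's markers were the highest except in the Monocyte cluster, where 14 macrophage markers (57.4 UMIs per 10000) exceeded 8 monocyte markers (50.2). The proliferating cells held macrophage (52) and T cell (30.7) markers, and no list was made for pDC or for the cluster called Undefined. In the OM library of Aachen, macrophage markers in T cells stood at 37.3 UMIs per 10000, against 0.815 to 13.8 in the other 5 libraries.

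T cells made up a smaller share of the OM than of the cortex at every facility. The 4 numbered T cell clusters held 30.3%, 32.6% and 40.7% of the cortical cells at Aachen, Bonn and Hamburg and 12%, 19% and 18.6% of the OM cells. Every OM value was below every cortical value, and the mean difference was -18 ± 4.25 percentage points (SD, n = 3). T_cell_1, in which Cd4 was highest among the 4 numbered T cell clusters, carried most of it. Its share was 15.6%, 16.9% and 22.2% in cortex and 3.97%, 8.53% and 6.19% in OM, with no overlap. T_cell_2, in which Cd8a, Cd8b1 and Ccl5 (a chemokine of cytotoxic cells) were highest among T cells, went from 11.3%, 7.83% and 10.4% to 5.3%, 6.44% and 5.87%, again with no overlap. T_cell_3, in which Ccr7 and Lef1 were highest among T cells, had 2.87%, 7.31% and 7.02% in cortex and 2.42%, 3.7% and 5.42% in OM, and the compartments overlapped. Within the T cells the weights shifted: T_cell_1 was 51.5%, 51.7% and 54.5% of cortical T cells and 33%, 44.9% and 33.3% of OM T cells.

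Among innate lymphocytes, NK_cell_2 was the other cluster lower in the OM without overlap. It held 3.15%, 3.19% and 4.86% of cortical cells and 0.816%, 1.93% and 2.73% of OM cells. NK_cell_1, marked by Gzma, which encodes a granzyme of cytotoxic granules, and by Eomes, went up at Aachen and Hamburg and down at Bonn, with a mean difference of -0.399 ± 2.49 points. Group 2 innate lymphoid cells (ILC2) had 2.58%, 1.15% and 2.37% in cortex and 2.58%, 1.93% and 2.36% in OM, a mean difference of 0.261 ± 0.455 points.

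**Figure D1:**
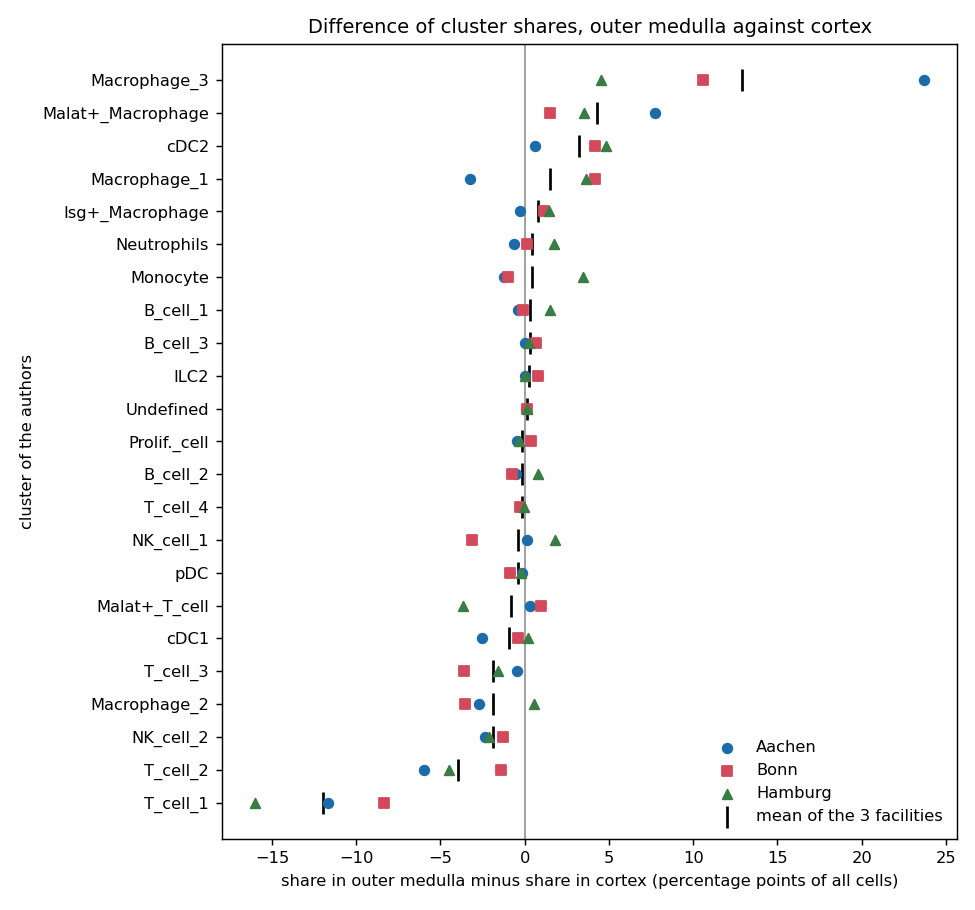
Share of each of the authors' 23 clusters in outer medulla minus its share in cortex, in percentage points of all cells; symbols are facilities and the bar is their mean. By its mean T_cell_1 (-12 points) lies furthest below 0 and Macrophage_3 (12.9 points) furthest above it, while B_cell_1 (0.342 points) lies near 0.

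Among dendritic cells cDC2 were higher in the OM, and cDC1 differed by facility. cDC2 were 1.58%, 2.27% and 1.71% of cortical cells and 2.2%, 6.44% and 6.52% of OM cells, higher in the OM at every facility, although the Aachen OM value lay below the Bonn cortical value. cDC1 were 3.08%, 1.53% and 2.16% in cortex and 0.571%, 1.13% and 2.36% in OM, lower at Aachen and Bonn and slightly higher at Hamburg. Taking only cDC1 and cDC2 as the denominator, cDC2 went from 33.8%, 59.7% and 44.2% to 79.4%, 85.1% and 73.4%. These groups did not overlap, and the difference was 33.4 ± 10.7 points with the same sign at all 3 facilities. Plasmacytoid dendritic cells (pDC), the interferon-producing cousins of the cDCs, were few, with 3, 43 and 19 cells in cortex and 2, 2 and 14 in OM.

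B cells held nearly the same share in both compartments within each facility. The 3 B cell clusters were 14.9%, 30% and 18.5% of cortical cells and 14%, 29.8% and 21.1% of OM cells. The differences between facilities were far larger than the mean difference between compartments of 0.516 ± 1.84 points. For B_cell_1 the log2 ratio was 0.03 (SE 0.34). Monocytes were lower at Aachen and Bonn (2.01% to 0.789% and 5.05% to 4.03%) and higher at Hamburg (2.82% to 6.27%). Proliferating cells and neutrophils also changed sign between facilities.

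The resident macrophages as a whole took a larger share of the OM, but not every cluster of them did. The class comprised Macrophage_1, Macrophage_2, Macrophage_3 and Isg+_Macrophage, and Malat+_Macrophage was not counted in it. These clusters summed to 35.6%, 14.7% and 9.47% of cortical cells and 53.1%, 27.1% and 19.7% of OM cells. Macrophage_3 had 0, 38 and 0 cells in cortex, where a count of 0 allows up to 0.215% at Aachen and 0.122% at Hamburg, and made up 23.7%, 11.6% and 4.52% of the OM. Macrophage_2 went from 12.6%, 12.3% and 3.1% to 9.9%, 8.7% and 3.67%, and Macrophage_1 from 21.1%, 0.655% and 5.47% to 17.8%, 4.83% and 9.12%, so that each changed sign between facilities. The Malat+_Macrophage cluster, named for the nuclear RNA Malat1, went from 3.01%, 1.69% and 4% to 10.8%, 3.22% and 7.54%.

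By edgeR's quasi-likelihood test on cell numbers with the facility as block, 0 of 23 clusters passed an adjusted p of 0.05 (0%), and 4 had an unadjusted p below it. The lowest adjusted values were 0.0563 for Macrophage_3 (log2 ratio 6.53, SE 1.52) and 0.0752 for T_cell_1 (-1.56, SE 0.47), cDC2 (1.33, SE 0.42) and Malat+_Macrophage (1.24, SE 0.39). Without Aachen or without Hamburg, Macrophage_3 passed (adjusted p = 4.61e-06 and 0.031), and without Bonn, the only facility with such cells in cortex, it did not (0.201). Compartments did not overlap in 4 of 23 clusters (17.4%): Macrophage_3, NK_cell_2, T_cell_1 and T_cell_2. The exact permutation test within facilities has 8 arrangements and cannot go below 0.25, the value that each of these 4 clusters reached. Shares sum to 100%, so a rise of the macrophages lowers the others. With the cells outside the resident macrophages as denominator, 3 clusters passed: T_cell_1 (log2 ratio -1.32, adjusted p = 0.0232), cDC2 (1.63, adjusted p = 0.0163) and Malat+_Macrophage (1.57, adjusted p = 0.0163). That denominator still held the Malat+_Macrophage cells. With TMM scaling of the cell numbers these 3 did not pass (adjusted p = 0.0812, 0.0696 and 0.137, in that order), while Macrophage_3 did (0.0261).

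**Figure D2:**
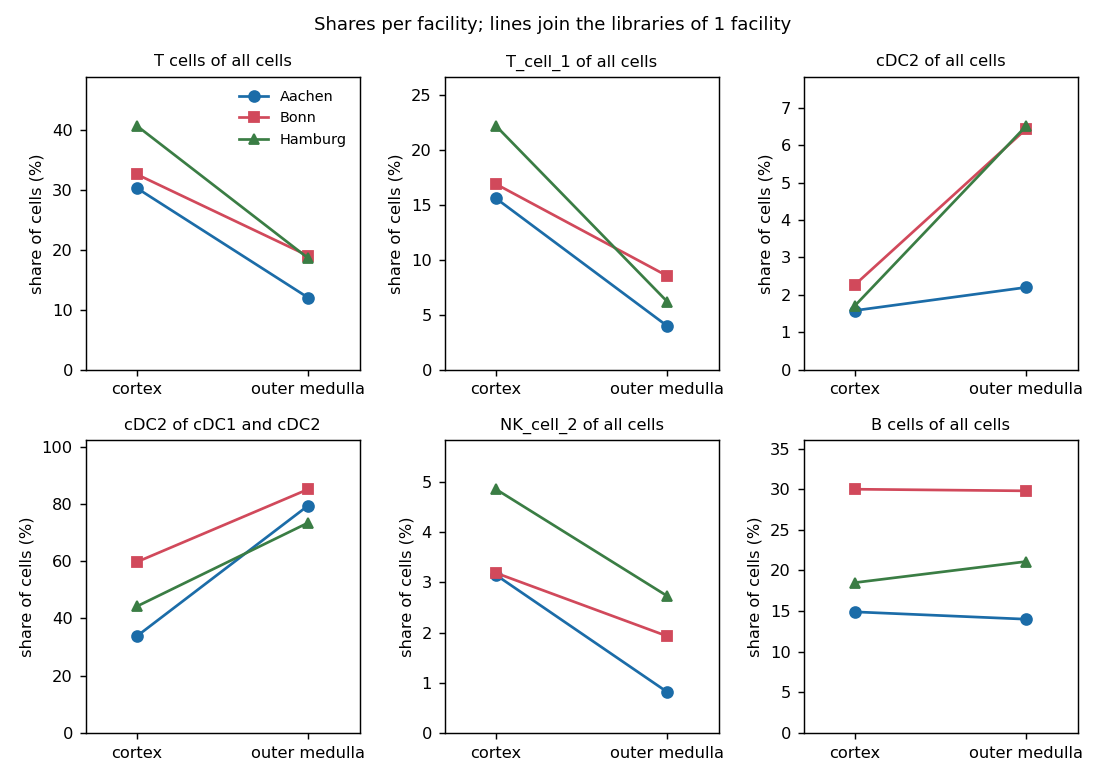
Shares of cells (%) in cortex and outer medulla, with a line joining the libraries of each facility. The lines of the T cells, T_cell_1 and NK_cell_2 fall and those of cDC2 rise at all 3 facilities, and those of the B cells stay nearly level.

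Gene levels were then compared within each class and cluster on counts summed per library. Levels are given as CPM, that is counts normalised to the summed library of the class or cluster. Across the 17 clusters that could be tested, 92 gene calls passed at an adjusted p under 0.05. Within pooled classes 75 genes passed in cDCs, 68 in resident macrophages, 4 in B cells and 2 in T cells. All these calls needed the facility block: without it, edgeR called 0 genes in every class and cluster. The clusters B_cell_3, Macrophage_3, Neutrophils, pDC, T_cell_4 and Undefined had under 10 cells in too many libraries to be tested. DESeq2 with the block called 46 genes in cDCs, 45 in resident macrophages, 1 in B cells and 0 in T cells, and 19 over the clusters. In bulk sums of a cluster, fewer cells of a subtype and less RNA per cell cannot be told apart.

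**Figure D3:**
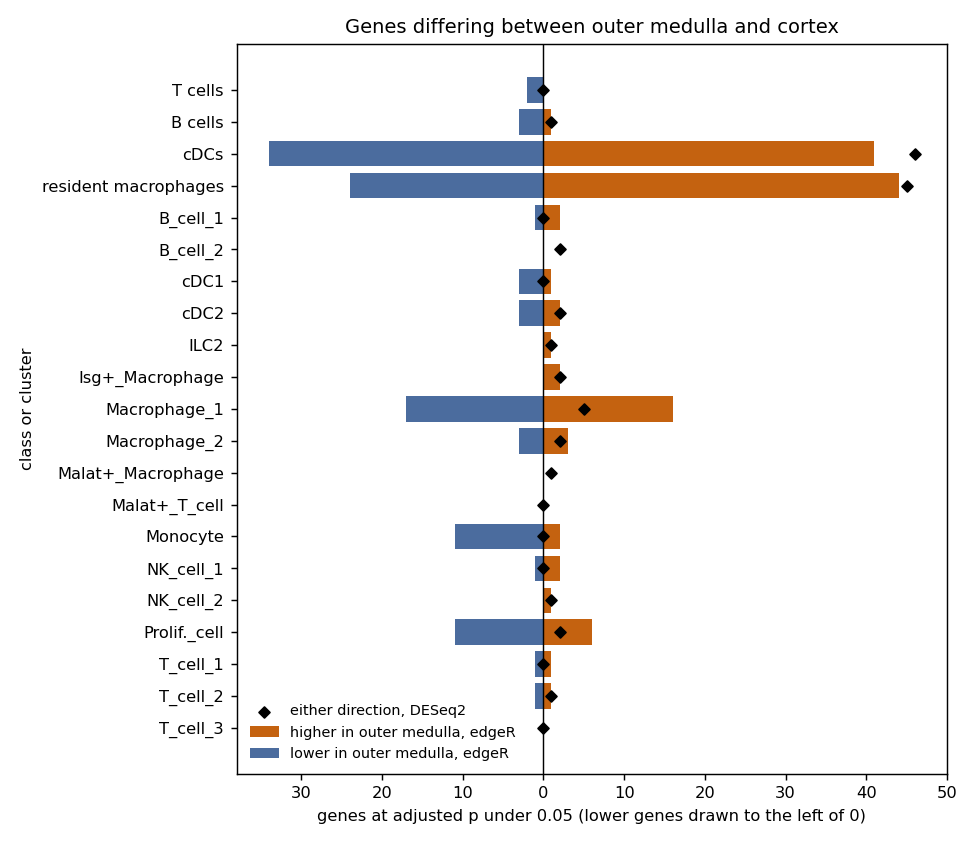
Number of genes at an adjusted p under 0.05 in each class and cluster, higher in outer medulla to the right and lower to the left (edgeR, bars), with the DESeq2 count of both directions as a diamond. The cDCs (41 higher, 34 lower) and resident macrophages (44 higher, 24 lower) hold most calls, and the lymphocyte clusters at most 3 each.

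Among the pooled classes outside the macrophages the cDCs had most calls, with 75 of 6757 genes (1.11%). Of these, 41 (0.607%) were higher in the OM and 34 (0.503%) lower. Fitted as clusters, cDC1 and cDC2 had 0.127% and 0.113% of genes called, against 0.238% in monocytes and 0.396% in proliferating cells. Genes that mark the subsets moved with the subset mix described above. Of 7 cDC1 markers 0 were higher and 3 lower in the OM (median log2 difference -0.91, against 0.00 over all genes), and of 8 cDC2 markers 3 were higher and 0 lower (median 0.67). Xcr1, the chemokine receptor that defines cDC1, had 286, 154 and 238 CPM in cortex at Aachen, Bonn and Hamburg and 84.8, 86.9 and 88.7 CPM in OM, with no overlap. Irf8 went from 1590, 837 and 947 CPM to 495, 465 and 496 CPM. Tlr3, a receptor for double-stranded RNA, was lower by 1.24 on the log2 scale (SE 0.23). On the other side, the lectins Cd209a (log2 difference 0.99, SE 0.17) and Clec10a (1.23, SE 0.20) were higher, as was Irf4 (1.33, SE 0.27), with 9.38, 19.6 and 20.4 CPM in cortex and 35.3, 51.7 and 49.1 CPM in OM. When each subset was fitted apart, Irf8 differed by -0.19 in cDC1 and -0.85 in cDC2, Xcr1 by -0.32 in cDC1, Cd209a by 0.21 in cDC2 and Clec10a by 0.52 in cDC2, and none of these passed.

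The other leading genes of the cDCs were of mixed kinds. The strongest rises with the same sign at all facilities were Kap, Fxyd2, Epcam, Id3 and Mgl2. Kap (proximal tubule) and Fxyd2 (a subunit of the tubular sodium pump) are tubular genes and were low: Fxyd2 had 18.8, 4.72 and 1.2 CPM in cortex and 120, 18.8 and 17.4 CPM in OM. Epcam, an adhesion molecule of epithelia and of some dendritic cells, had 14.1, 6.07 and 4.8 CPM in cortex and 28.3, 11.7 and 48.3 CPM in OM. Id3, an inhibitor of E-protein transcription factors, differed by 2.12 (SE 0.37). Ccl7, a chemokine gene without UMIs at Bonn, had the largest fall of those named here (-3.19, SE 0.33), with 98.5 and 328 CPM in cortex and 14.1 and 36.4 CPM in OM at Aachen and Hamburg, and an adjusted p of 0.844 by DESeq2. Other falls, with the same sign at all 3 facilities, were those of Tlr12, Spp1 (osteopontin), P2ry14 (a receptor for UDP-glucose), Phf11d and Snx22, with log2 differences from -1.99 to -1.34. Txn1, which encodes the redox protein thioredoxin, went from 619, 380 and 386 CPM to 269, 214 and 199 CPM, with no overlap (log2 difference -0.97, SE 0.14). With the term for the subset described below, the difference of Txn1 was -0.42 (adjusted p = 0.866), that of P2ry14 -0.69 and that of Snx22 -0.78. Txn1 was the only called member of 15 tested genes of oxidative stress, whose median difference was -0.15.

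These cDC calls rested on the facilities unequally. Without Hamburg 0 genes were called, although all 68 of the 75 that could still be tested kept their sign. Without Aachen 20 genes were called, 16 of them among the 75, and without Bonn 155 were called, 56 of them among the 75. In a fit of cDC1 and cDC2 together with a term for the subset, chosen after seeing the data, 7 genes passed, 5 of them among the 75. That fit had no term for the library, so its p-values treat the cDC1 and cDC2 sums of the same library as independent. The median absolute log2 difference of the calls that could be tested was 0.51 in that fit, against 1.06 without the term. Those 7 were Mgl2 (log2 difference 1.43) on the higher side and Ccl7 (-2.56), Gem (-2.45), Phf11d (-1.57), Ifitm1 (-1.48), Ifi27l2a (-1.05) and the immunoglobulin segment Igkv1-117 on the lower side.

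Within cDC2, 2 of 4430 genes (0.0451%) were higher in the OM and 3 (0.0677%) lower; the count was small, so all are named here. Mgl2 (chr11:70130125-70137542), a galactose-binding lectin of a cDC2 subset and of macrophages, had 125, 339 and 95.6 CPM in cortex and 486, 607 and 295 CPM in OM. It rose at every facility, although the Hamburg OM value lay below the Bonn cortical value (log2 difference 1.32, SE 0.24, adjusted p = 0.0181). Ifi27l2a (chr12:103433873-103443680), an interferon-inducible gene of mitochondria, had 1145, 1178 and 650 CPM in cortex and 377, 325 and 403 CPM in OM. All OM values lay below all cortical values (log2 difference -1.38, SE 0.21, adjusted p = 0.00668). It passed also without Hamburg (adjusted p = 0.0106), without Bonn (0.015) and by DESeq2 (0.00238), and had an adjusted p of 0.0552 without Aachen. Mgl2 lost its call without Aachen (0.0594), without Hamburg (0.541), without called doublets (0.0828) and after thinning to 500 UMIs (0.395). Spp1 fell from 157, 20.5 and 103 CPM to 19.8, 9.74 and 11.8 CPM, on 10, 16 and 27 UMIs in cortex and 2, 3 and 9 in OM. The fall of Ifitm1 came with 61.6% of its cortical UMIs in a single cell. AY036118, which overlaps ribosomal RNA sequence, was listed at 0 at Aachen and rose at Bonn and Hamburg (752 and 1120 to 1903 and 2021 CPM). The interferon list, which counts Ifi27l2a, had a negative sign for 11 of 11 tested members, and only Ifi27l2a passed. With Ifi27l2a included, 5 members had an unadjusted p under 0.05, and the median was -0.60 against 0.01 over all genes. Over all 4430 genes 293 had an unadjusted edgeR p under 0.05, in either direction. Irf7, the master regulator of type I interferon, had 110, 80.9 and 134 CPM in cortex and 29.8, 39 and 59.1 CPM in OM, with no overlap (log2 difference -1.29, SE 0.30, adjusted p = 0.106).

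Within cDC1, which only Aachen and Hamburg gave in both compartments, 1 of 3154 genes (0.0317%) was higher in the OM and 3 (0.0951%) lower, and DESeq2 called 0. Of 17 tested NF-kB and cytokine genes 2 were lower and 1 higher (median -0.34), and of 21 immediate early genes 1 was lower and 0 higher, with 21 of negative sign (median -0.62 against -0.03 over all genes). Ccl7 (chr11:82045712-82047525), a chemokine that draws monocytes, had 136 and 478 CPM in cortex at Aachen and Hamburg and 0 and 45.1 CPM in OM, and 0 CPM in the cortex of Bonn. Nfkbia (chr12:55489409-55492647), the inhibitor that NF-kB induces against itself, went from 852 and 933 CPM to 314 and 318 CPM, with 142 CPM in the cortex of Bonn. Its log2 difference was -1.50 (SE 0.28, adjusted p = 0.0377). Ier3, an immediate early gene, had 136 and 215 CPM in cortex and 52.4 and 30.1 CPM in OM. A single cell gave 28.4% of its cortical UMIs. The rise of Cxcl2, a neutrophil chemokine, came with 94.1% of its OM UMIs in a single cell. In cDC1 the interferon list had 5 of 10 members of either sign and a median of 0.04.

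**Figure D4:**
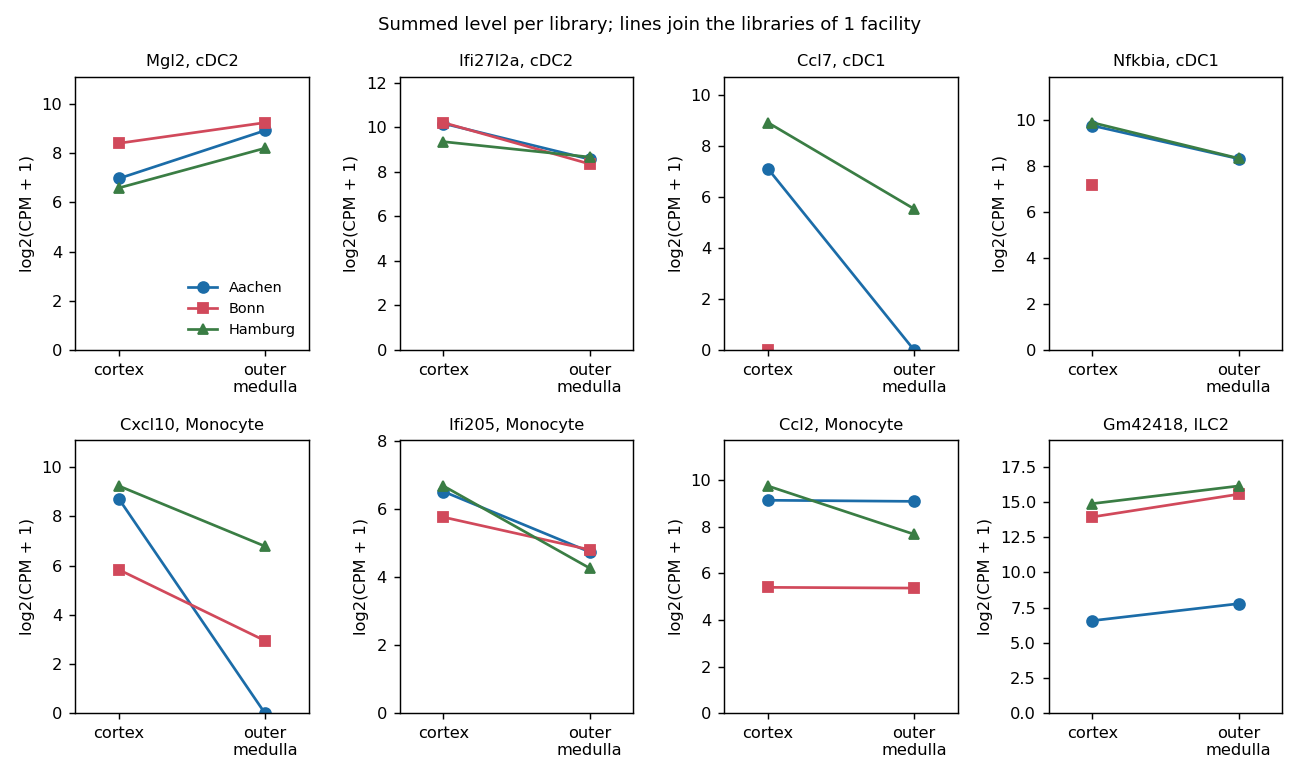
Summed level as log2(CPM + 1) of 8 genes in the cluster named above each panel, with lines joining the cortex and outer medulla libraries of a facility; in cDC1 the Bonn outer medulla held under 10 cells and is not drawn. Ifi27l2a, Nfkbia, Cxcl10 and Ifi205 fall and Mgl2 and Gm42418 rise at every facility drawn, while Ccl2 falls at Hamburg and is level at Aachen and Bonn.

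In monocytes most calls were lower in the OM. Of 5455 genes, 11 (0.202%) were lower in the OM and 2 (0.0367%) higher, while DESeq2 called 0 and had 54 at an unadjusted p under 0.05. Cxcl10 (chr5:92346638-92348889), an interferon-induced chemokine for T cells, had 415, 55.9 and 599 CPM in cortex and 0, 6.72 and 109 CPM in OM. It fell at each facility, although the Hamburg OM value lay above the Bonn cortical value (log2 difference -2.63, SE 0.29, adjusted p = 5.56e-12; DESeq2 adjusted p = 0.112). Its OM levels at Aachen and Bonn rest on 0 and 1 UMIs in 29 and 25 cells, and 38.9% of its cortical UMIs came from a single cell. Ifi205 (chr1:174011998-174031755), an interferon-inducible gene of the p200 family, had 90.1, 53.1 and 101 CPM in cortex and 25.7, 26.9 and 18.2 CPM in OM, with no overlap (-2.09, SE 0.44, adjusted p = 0.00672). Isg15, a ubiquitin-like protein induced by interferon, had 162, 250 and 406 CPM in cortex and 180, 168 and 145 CPM in OM, so it fell at Bonn and Hamburg but not at Aachen (-1.12, SE 0.25, adjusted p = 0.0101). Ifit2 passed on the lower side as well. All 17 tested members of the interferon list had a negative sign, 2 of them called and 10 with an unadjusted p under 0.05, and their median was -0.66 against -0.02 over all genes. Over all 5455 genes 194 had an unadjusted edgeR p under 0.05, in either direction.

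Of 18 tested NF-kB and cytokine genes in monocytes, 4 were lower in the OM and 0 higher (median -0.50). Ccl2 (chr11:82035577-82037452), the main ligand of the monocyte receptor CCR2, had 559, 41.2 and 855 CPM in cortex and 541, 40.3 and 203 CPM in OM, so that only Hamburg changed, and without Hamburg its log2 difference was 0.09. Tnfaip3, a brake on NF-kB, went from 126, 19.2 and 664 CPM to 154, 13.4 and 263 CPM, and Cxcl2 from 991, 22.9 and 3972 CPM to 489, 87.3 and 1309 CPM, each with the opposite sign at a facility. Nfkbia, which missed the threshold (adjusted p = 0.0535), went from 1424, 279 and 2539 CPM to 695, 215 and 1370 CPM. The other called genes were Gdf15, Phlda1, Rasgef1b and Igkv1-135 on the lower side and Hspb1 and AY036118 on the higher side. Without Hamburg none of the 7 calls that could be tested passed and 3 of 7 kept their sign. Without Aachen 2 of 13 passed, and all 13 kept their sign, and without Bonn 10 of 12 passed. The macrophage markers in this cluster stood at 59.7, 69.4 and 40 UMIs per 10000 in cortex and 101, 71.9 and 44.3 in OM, higher in the OM at each facility, and their part in the result was not tested.

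Because several of these genes answer to interferon, promoters were searched for the core of the interferon-stimulated response element, 2 GAAA blocks with any 2 bases between them, on either strand, in the 250 bases before the RefSeq start (GRCm38.p6). The motif and the genes were chosen after the values were seen. It occurred at 936 of 27025 genes (3.46%) and at 6 of 10 genes of the interferon list that have a promoter sequence (60%). That list was made of genes known to answer to interferon, so its share does not bear on the compartments. The share among all genes lower in OM monocytes was not counted. Sites of 3 genes lower in OM monocytes are shown with the motif in capitals and 10 bases on each side, read 5′ to 3′ along the gene's strand, which is the minus strand for all 3.
Ifi205, chr1:174031870-174031899: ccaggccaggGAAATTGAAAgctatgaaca
Isg15, chr4:156200871-156200900: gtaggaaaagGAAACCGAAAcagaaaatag
Cxcl10, chr5:92349083-92349112: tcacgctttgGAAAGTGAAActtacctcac
The motif begins 134 bases before the start of Ifi205, 72 before that of Isg15 and 213 before that of Cxcl10, and the Isg15 promoter holds it 3 times in overlapping copies. A match describes the letters of the window and is not evidence of binding.

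Across the other clusters, the interferon list had the same sign as in monocytes and cDC2 in some and not in others. In T cells 15 of 15 tested members had a negative sign and 0 passed, 5 having an unadjusted p under 0.05 (median -0.35). Over all 8522 genes of T cells 496 had an unadjusted edgeR p under 0.05, in either direction. Isg15 in T cells had 80.3, 90.3 and 107 CPM in cortex and 67.1, 43.7 and 59.2 CPM in OM, with no overlap (log2 difference -0.92, SE 0.34, adjusted p = 0.78). In Isg+_Macrophage, the cluster that the authors named for these genes, 13 of 17 members were negative (median -0.46) and Ifit2 had 632, 424 and 408 CPM in cortex and 287, 217 and 162 CPM in OM (adjusted p = 0.347). In Macrophage_1, where 33 of 6261 genes (0.527%) were called, Ifit2 passed (log2 difference -1.66, SE 0.30), with 121, 23.9 and 113 CPM in cortex and 21, 0 and 49.9 CPM in OM. In B cells 5 of 10 members were of either sign and the median was -0.01, and in NK_cell_1 the median was 0.22.

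T cells, whose share was lower in the OM at every facility, had few genes called: 0 of 8522 (0%) were higher in the OM and 2 (0.0235%) lower. With 3 libraries a side, few calls do not show that levels were alike. At an unadjusted p of 0.05 edgeR had 496 genes and DESeq2 188, with 0 called by DESeq2. Both called genes are named because the count was small. Trbv29, a variable segment of the T cell receptor beta chain, was listed at 0 at Aachen and went from 92.8 and 116 CPM at Bonn and Hamburg to 43.7 and 40.9 CPM. Gm8797, a predicted gene, had 1731 CPM in the cortex of Aachen and 581 CPM in its OM, and 5.1 CPM or less elsewhere. Its call was absent without Aachen (log2 difference -0.87), and without Hamburg 0 genes were called in T cells. Lineage and state genes did not pass: Cd4 differed by 0.00 (SE 0.17), Cd8a by 0.15 (SE 0.12), the early activation marker Cd69 by -0.05 (SE 0.15) and the homing receptor Ccr7 by 0.09 (SE 0.22). Of 16 residency and activation genes, 10 circulation genes and 20 fate and effector genes that could be tested, 0 passed in either direction, with medians of -0.05, 0.12 and 0.09. Ikzf2, the transcription factor Helios, had the lowest unadjusted p of those named here: 109, 70 and 30.3 CPM in cortex and 144, 151 and 50.1 CPM in OM (0.83, SE 0.17, adjusted p = 0.266).

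Macrophage transcripts were found in T cells and moved with the compartment at Aachen. Of 10 tested macrophage markers 9 had a positive sign in OM T cells (median 0.82) and of 9 class II antigen presentation genes 9 did (median 0.77), with 0 called in either list. Apoe, a lipid carrier abundant in macrophages, had 534, 49.9 and 6.12 CPM in cortical and 2268, 13.9 and 15.6 CPM in OM T cells. The 14 markers summed to 13.8, 2.38 and 0.815 UMIs per 10000 in cortical and 37.3, 1.85 and 1.57 in OM T cells, so the rise was carried by Aachen. Cst3 (cystatin C), the only gene called higher in T_cell_2, had 753, 213 and 105 CPM in cortex and 2760, 228 and 530 CPM in OM (log2 difference 1.61, SE 0.28, adjusted p = 0.0258). Its call was absent without Aachen (adjusted p = 0.496) and without Hamburg (0.477). The part of these transcripts in the T cell results was not tested beyond leaving out cells with 2 or more marker UMIs, after which both T cell calls stood. T_cell_1 had AY036118 higher and Trbv29 lower, and T_cell_2 had Gm8797 lower. T_cell_3 had 0 calls by edgeR (124 genes below 0.05 before adjustment) and by DESeq2 (37 genes).

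**Figure D5:**
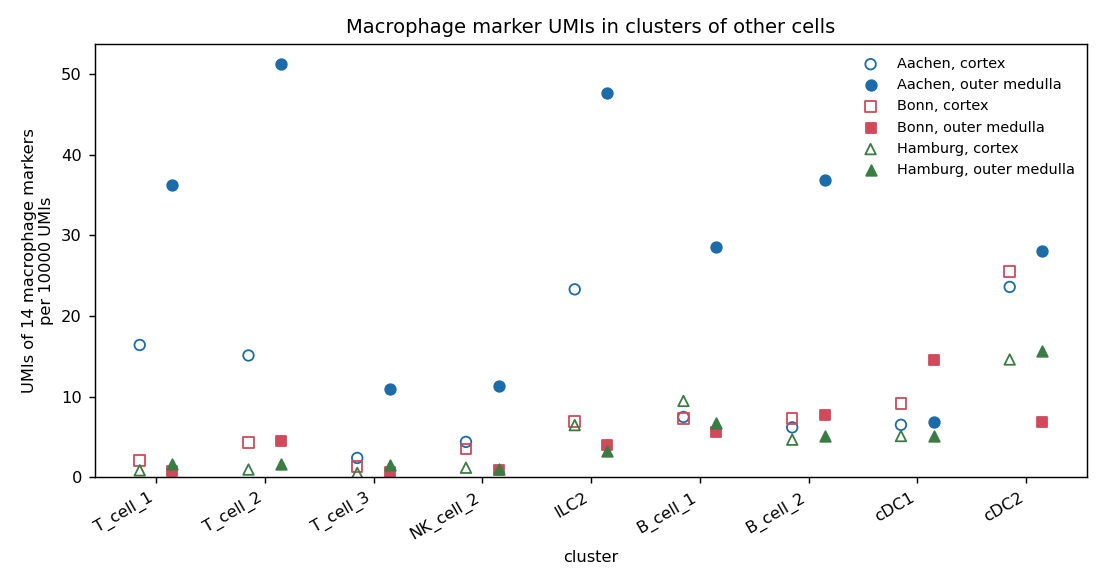
UMIs of 14 macrophage markers per 10000 UMIs in clusters of other cells, cortex as open and outer medulla as filled symbols, by facility. The Aachen outer medulla library lies above all others in T_cell_1 (36.2), T_cell_2 (51.2) and ILC2 (47.6).

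B cells also had few genes called. Of 8509 genes 4 (0.047%) were called, 1 (0.0118%) higher and 3 (0.0353%) lower in the OM, and all 4 were variable segments of the immunoglobulin genes, listed at 0 at Aachen, so that they rest on Bonn and Hamburg. Igkv14-100 had 306 and 116 UMIs in the cortex and 0 and 7 in the OM, found in 14 cells of the cortex. Ighv13-2 had 87.9% of its cortical UMIs in a single cell. Ighv2-5 went from 24.8 and 38.6 CPM to 0 and 6.31 CPM. Ighv6-6 rose from 31.7 and 21.3 CPM to 142 and 80 CPM (log2 difference 2.02, SE 0.22) and was the only call that DESeq2 shared. After leaving out B cells with 2 or more macrophage marker UMIs, a setting chosen after seeing the data, 1 of the 4 calls stood. Constant regions did not pass: Ighm had 996 and 1066 CPM in cortex and 1021 and 951 CPM in OM at Bonn and Hamburg (-0.07, SE 0.13). The activation marker Cd83 had 822, 368 and 1234 CPM in cortex and 387, 316 and 1112.5 CPM in OM (-0.41, SE 0.16, adjusted p = 1). Within clusters B_cell_1 had 3 calls of 8106 (0.037%), 2 higher (0.0247%) and 1 lower (0.0123%), all variable segments, and B_cell_2 had 0 by edgeR (61 at an unadjusted p under 0.05) and 2 by DESeq2.

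Among innate lymphocytes, ILC2 and NK_cell_2 each had 1 gene called, both overlapping ribosomal RNA sequence, whose reads could be shared with that repeat. In ILC2, 1 of 1381 genes (0.0724%) was called: Gm42418 had 94.5, 15641 and 30067 CPM in cortex and 219, 47788 and 71628 CPM in OM. It rose at every facility while the facilities themselves differed more (log2 difference 1.42, SE 0.11, adjusted p = 8.98e-05), and it was called without any single facility and by DESeq2. Over the 17 tested clusters Gm42418 differed by -0.74 to 1.42, positive in 11. AY036118 was called higher in NK_cell_2, T_cell_1, cDC2 and Monocyte and was positive in 15 of 17 clusters (median 0.69). In NK_cell_2, where it was the only call of 1155 genes (0.0866%), it had 1864 and 1290 CPM in cortex and 6306 and 2670 CPM in OM at Bonn and Hamburg. It was listed at 0 at Aachen, and 34.5% of its OM UMIs came from a single cell. NK_cell_1, tested with Aachen and Hamburg, had 3 calls of 3458 (0.0868%), 2 higher (0.0578%) and 1 lower (0.0289%), and 0 by DESeq2. Cxcl2 and Il1b, genes of myeloid inflammation, were higher at both facilities, with 2 and 98 UMIs of Cxcl2 and 3 and 52 of Il1b in the OM. Of their OM UMIs, 30.6% and 59.4% came from a single cell. Igkv10-96 was lower but was seen in only 2 cells of the cortex.

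Proliferating cells had 17 calls among 4294 genes (6 higher, 0.14%, and 11 lower, 0.256%), from as few as 13 cells a library and from Aachen and Hamburg for the contrast. Cst3 went from 1110.5 and 1146 CPM at Aachen and Hamburg to 5869 and 3856 CPM (log2 difference 2.05, SE 0.28, adjusted p = 6.62e-10) and passed by DESeq2, which called 2 genes in all. A single cell gave 39.6% of the OM UMIs of Cst3. Without Aachen or without Hamburg no contrast could be fitted. Cd8b1 and Gzmb, genes of cytotoxic T cells, were higher with C1qc, a complement gene of macrophages, in a cluster that mixes both kinds of cell. A single cell gave 40.8% of the OM UMIs of Gzmb. After thinning to 500 UMIs a cell the difference of Cd8b1 was -0.02. The cytokine gene Tnf had 123 and 403 CPM in cortex and 29.2 and 79.2 CPM in OM, and the lymphotactin gene Xcl1 had 267 and 893 CPM in cortex and 204 and 178 CPM in OM. Both passed on the lower side (log2 differences -2.30 and -1.78), as did Plac8, Hmox1 and Hist1h2ap. At Aachen the Tnf levels rest on 6 UMIs in cortex and 1 in OM. Of the cortical UMIs of Plac8 and Hmox1, 44.5% and 40.3% came from a single cell. The histone gene Hist1h2ap had 4134 and 112 CPM in cortex and 701 and 6.6 CPM in OM.

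Resident macrophages are given here only for setting the others beside them: 44 of 8228 genes (0.535%) were higher and 24 (0.292%) lower in the OM. Without Hamburg 5 genes were called, 3 of them among the 68. Fxyd2 had 27.5, 19.9 and 22.9 CPM in cortex and 590, 262 and 249 CPM in OM. Fxyd2 is also a member of the list of 14 thick ascending limb genes, and no total was computed without it. By its CPM values it gave a large part of the OM total of that list in macrophages. The 14 genes together had 0.792, 1.59 and 1.33 UMIs per 10000 in cortical and 5.15, 4.61 and 3.87 in OM macrophages, with no overlap. In T cells these values were 0.637, 1.27 and 1.25 in cortex and 1.21, 1.28 and 1.56 in OM, and in cDC2 0.96, 1.74 and 1.3 in cortex and 2.19, 1.24 and 2.07 in OM. Macrophage_2 had 3 of 4452 genes higher (0.0674%) and 3 lower (0.0674%), with Ccl2 and Ccl7 among the lower and 165, 9.75 and 1473 CPM of Ccl2 in cortex and 110, 3.63 and 522 CPM in OM. A single cell gave 40.1% of the cortical Ccl2 and 50.2% of the cortical Ccl7 UMIs. Without Hamburg the difference of Ccl2 moved from -1.28 to -0.66 (adjusted p = 0.894).

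Whether the OM difference itself varied between classes was tested with an interaction term against the resident macrophages. This fit had no term for the library, so its p-values treat sums of different classes from the same library as independent. In T cells 0 of 9652 genes differed (540 at an unadjusted p under 0.05). In B cells 4 of 9709 differed, of which 3 were immunoglobulin segments and the other was the transcription factor gene Bcl11a (difference of log2 differences 3.13, SE 0.49, adjusted p = 0.0143). In cDCs 17 of 9009 differed, 12 with a larger and 5 with a smaller value than in macrophages. Bcl11a was among the larger with the same difference of 3.13 (SE 0.60, adjusted p = 0.0327). It was not among the genes called within B cells. Both of its differences were taken against the same resident macrophages, and the part of that shared reference in them was not tested.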

How the data were processed

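Single-cell libraries from cortex, OM and inner medulla of 3 facilities (9 libraries, of which 6 were compared) were used as deposited. The authors aligned reads to mm10 with Cell Ranger and analysed them in Seurat (versions not given in the sources used here), and they deposited a table of counts per cell for 32886 genes with the facility, the compartment and their own cluster names. Those deposited values were treated as estimated counts, because the Hamburg values were mostly not whole, and the sums were rounded. GEO lists 1 sample per compartment, so facilities were the replicates. Whether a facility pooled mice is not stated, and p-values measure only the spread between these libraries.

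Cells were summed per library and cluster, or per class (T cells, B cells, cDCs, resident macrophages), where a library had at least 10 cells. Sums were tested with edgeR 4.0.16 (glmQLFit and glmQLFTest, filterByExpr, TMM) in R 4.3.3 with compartment and facility as terms, inner medulla libraries included for the spread, and Benjamini-Hochberg adjustment over all genes of a unit at 0.05. Log2 differences are OM minus cortex. Each SE is the absolute log2 value divided by the square root of the quasi-likelihood F statistic. It is derived from that test rather than given by the model, and can be unstable where the log2 value is near 0. Cell numbers per cluster were tested in the same way with the library's cell total as offset, and shares also with a two-sided exact permutation test within facilities. DESeq2 1.42.0 was an alternative. Facility pairs the libraries, and this was checked in T cells and B cells only. After removing compartment means from log2 CPM (prior count 2), libraries of a facility correlated at 0.703 to 0.882 and libraries of different facilities at -0.811 to 0.536. Removing a mean over so few libraries itself lowers the correlations between facilities, so those values are not evidence of pairing. The code was tested on simulated data. Scrublet (scanpy 1.11.5) marked 302 cells (1.49%) as doublets, 194 of them in the cortex of Bonn, and so few elsewhere that it cannot be relied on there; cells were kept and left out only as an alternative.

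Named genes were, per unit, up to 5 called genes in each direction with the largest difference among those with at least 10 CPM in the higher compartment and the same direction at every facility, plus called list members in T cells, B cells or cDCs and the nephron segment lists as totals. Every other gene, among them the further monocyte calls, genes that did not pass and those of the subset-term fit, was named after its values were seen. Members and lists were chosen with earlier results of these data known. Promoter sequences were from RefSeq GRCm38.p6. The interactions set out in the closing section are those that passed and whose gene was called in cDCs or in resident macrophages, a definition widened after seeing the values.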

Additional observations from a re-analysis of the deposited data

Results flagged for a closer look

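The OM difference of 12 genes called in cDCs or in resident macrophages differed between these classes, as tested by the edgeR interaction term with adjusted p-values from 0.00895 to 0.0479. These p-values treat the cDC and macrophage sums of the same library as independent. The values below are the log2 difference in cDCs minus that in resident macrophages. They were positive for Fgr (2.52; 1.21 in cDCs and -1.34 in macrophages), Dpep2 (2.35), S100a6 (2.11), Ccrl2 (2.11), Sirpb1a (2.09), S100a4 (2.08), Napsa (1.88), Wfdc17 (1.43) and Slamf9 (1.36). Fgr is a kinase of myeloid cells, S100a4 and S100a6 encode calcium-binding proteins, and Ccrl2 a receptor that holds chemerin.

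They were negative for Cst3 (-1.64), Txndc15 (-1.07) and Ppt1 (-1.05). Cst3 was lower in OM cDCs (-0.58) and higher in OM macrophages (1.02), while it differed by 0.07 within cDC1 and 0.29 within cDC2. The make-up of both classes differed between compartments: cDC2 were a larger share of OM cDCs, and Macrophage_3 was 0%, 7.05% and 0% of resident macrophages in cortex and 44.7%, 42.9% and 23% in OM at Aachen, Bonn and Hamburg. The part of either in these differences was not tested.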

How the results depend on the processing

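Settings that moved a count by over 1.5 times are given first. Of 23 cluster shares 0 passed, against 3 with cells outside the resident macrophages as denominator, 1 with TMM on cell numbers, 1 with cells of at least 500 UMIs, and 0 to 1 when a facility was left out. Over the clusters 92 gene calls became 19 by DESeq2, 465 without a filter, 179 with only the cortex and OM libraries, 52 after thinning to 500 UMIs, and 40 to 241 when a facility was left out. By DESeq2, without a filter, after thinning and over the facilities left out, in that order, the 2 calls of T cells became 0, 86, 4 and 0 to 34 (11 without called doublets), the 4 of B cells 1, 99, 0 and 6 to 59, the 75 of cDCs 46, 181, 37 and 0 to 155 (7 with a subset term), and the 68 of resident macrophages 45, 330, 41 and 5 to 110 (184 with only the cortex and OM libraries).

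Without the facility block that pairs the libraries, 0 genes were called in every class and cluster. Of the interactions, the 0 in T cells became 6 with only the cortex and OM libraries and 0 to 1 when a facility was left out, the 4 in B cells 9 and up to 9, and the 17 in cDCs 45 and 6 to 80.

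Some directions turned. By log2 ratio of the share, the range when a facility was left out was -0.02 to 0.06 for B_cell_1, -0.50 to 0.17 for B_cell_2, -0.34 to 1.10 for Malat+_T_cell, -0.82 to 0.42 for Monocyte, -1.11 to 0.51 for NK_cell_1, -1.65 to 0.77 for Neutrophils and -0.72 to 0.00 for Prolif._cell. With cells outside the resident macrophages as denominator B_cell_2 was at 0.24, Monocyte at 0.18 and Neutrophils at 0.19. Without the block Malat+_T_cell was at -0.52, Monocyte at 0.16 and Neutrophils at 0.49. B_cell_2 was at 0.10 with TMM and B_cell_1 at -0.02 with cells of at least 500 UMIs. Within their class T_cell_2, T_cell_3 and T_cell_4 differed by 7.64, 6.54 and 1.31 points, and Macrophage_1 differed by -7.88. Ccl2 in Monocyte ranged from -1.73 to 0.09 when a facility was left out, and Cd8b1 in Prolif._cell was at -0.02 after thinning. The causes were not tested. Depth limits the Aachen OM most.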
